A study of Caenorhabditis elegans with 6 samples.

Results

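The set described here holds 40 named genes of the presynaptic terminal, chosen by name for their role in releasing, filling, moving or recycling synaptic vesicles. Probes were assigned to a gene through the sequence name that the array design gives them, with the isoform suffix dropped. Of the 40 genes, 38 were matched to 52 of the 20401 gene probes on the array. unc-17 and cha-1, which encode the vesicular acetylcholine transporter and choline acetyltransferase, could not be matched and were not analysed here. Of the 52 probes, 49 probes of 37 genes were bright enough to be tested, among 16272 tested probes in all. The 3 untested probes were those of cat-1, the vesicular monoamine transporter, and 1 probe each of unc-18 and tom-1, and their spots were marked as near background on every array.

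Caenorhabditis elegans worms of 2 genotypes were compared as whole young adult animals: the wild-type strain N2, and worms carrying the allele n4759 of mir-243, a microRNA gene. RNA of each genotype was prepared in 3 biological replicates, and each mutant preparation was set against its wild-type partner on 2 arrays with the dyes swapped, giving 6 arrays. A swapped pair holds 1 set of RNAs and counted as 1 replicate, so n was 3. A single mutant allele was examined. In whole animals, a change in the number of cells of a type and a change in RNA per cell cannot be told apart. Ratios were normalized within each array, so a higher or lower ratio is relative to the other RNAs on it.

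Neurons release transmitter when vesicles fuse with the plasma membrane through SNARE proteins, after docking and priming factors have prepared them and calcium has entered through voltage-gated channels. Emptied vesicle membrane is then taken back by endocytosis, and new vesicle parts are carried from the cell body by a kinesin motor. Classical transmitters are made at the terminal and loaded by vesicular transporters, whereas neuropeptides are cut from precursors inside dense-core vesicles. In C. elegans, octopamine is made from tyrosine through tyramine, in a few head neurons and in the gonadal sheath.

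Most synaptic genes were modestly higher in mir-243 worms, and few crossed a 2-fold change. The median log2 ratio of mutant over wild type over the 49 tested probes was 0.54 (SD 0.0423 over the 3 replicate medians, 0.57, 0.49 and 0.54), which is a 1.46-fold difference. Over all 16272 tested probes the median was -0.01. With Benjamini-Hochberg adjustment over all tested probes, 40 member probes were higher (81.6%, against 42.2% of all tested probes), 6 were lower (41.3% of all tested probes) and 3 did not pass an adjusted p of 0.05. Of the 40, 1 probe each of syd-1 and cat-2 entered the test only through the mutant, since they were well above background in wild type on 0 and 1 of 6 arrays. Without both, 38 of 47 probes were higher and 6 lower. Counts by role and by list further on stand beside these same shares of 42.2% and 41.3%. By gene, 30 genes had every tested probe higher, 3 had every tested probe lower (tbh-1, unc-26 and ehs-1), tdc-1 had a probe in each direction, and unc-31, tph-1 and unc-11 had at least 1 probe that did not pass.

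Calls that also needed a 2-fold change were few. In all, 5 member probes were called higher, of ric-4, snt-1, rab-3, unc-104 and egl-21, which is 10.2% of the 49 probes beside 9.1% of all tested probes. Called lower were 2 probes, of tbh-1 and tdc-1, which is 4.08% beside 7.17% of all tested probes. Both shares were near those of the whole array, so the 2-fold calls set the members little apart from other genes. The quartiles of the member ratios were 0.21 and 0.83, and 4 probes lay less than 0.1 below the log2 threshold of 1. When arrays were centred on their median in place of loess, only 2 member probes were called higher, sng-1 and syd-1, and the 5 named here fell to between 0.76 and 0.95.

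**Figure D1:**
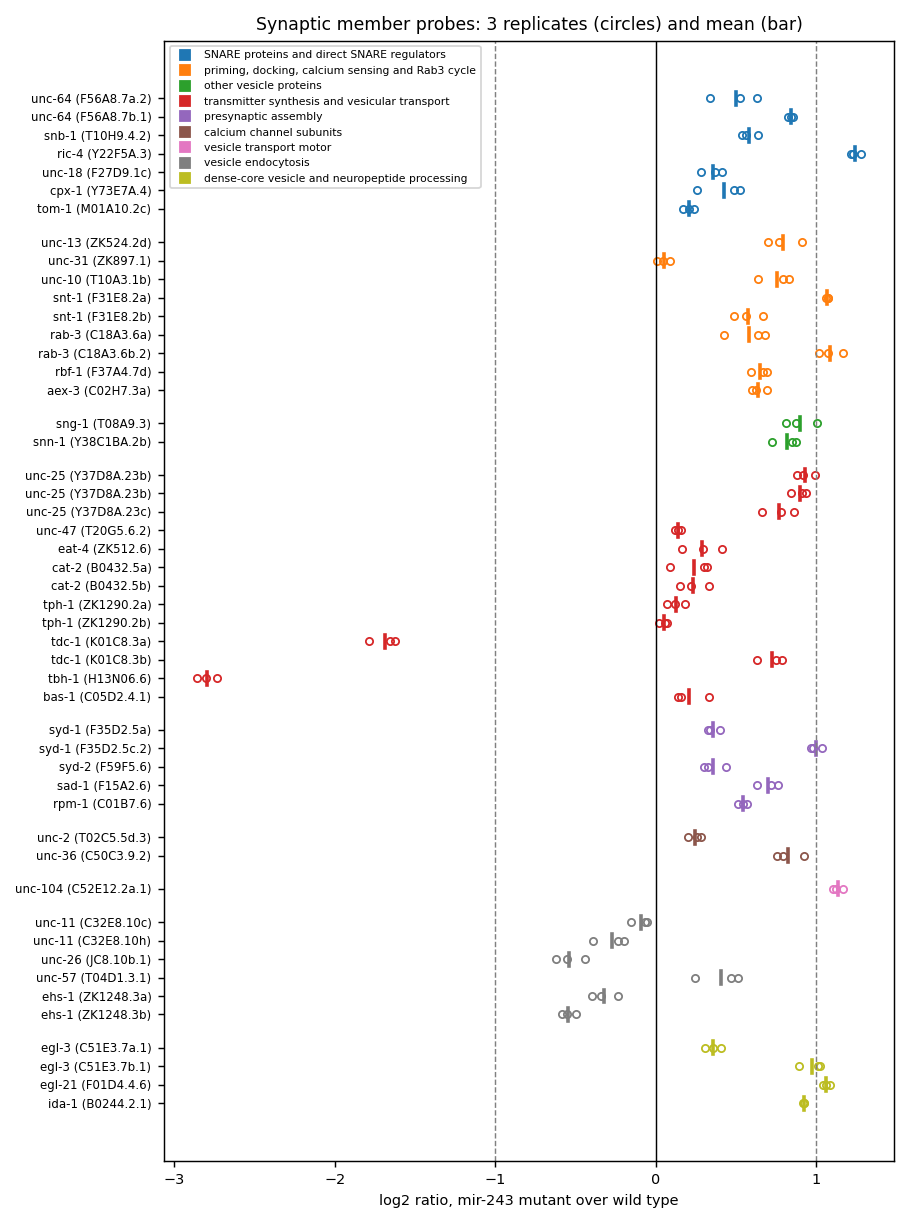
Log2 ratio of mir-243 mutant over wild type for the 49 tested member probes, grouped by role. Circles are the 3 replicates, each the mean of both dye orientations, bars are their means, and dashed lines mark a 2-fold change. Most probes lie between 0 and 1, the endocytosis probes lie mostly below 0, and tbh-1 and 1 of 2 tdc-1 probes lie far to the left.

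The largest change among the members was in the transcript of tbh-1, a gene of octopamine synthesis. tbh-1 encodes tyramine beta-hydroxylase, which turns tyramine into octopamine, and its log2 ratios were -2.86, -2.80 and -2.74. Transcript level was thus 6.95-fold lower in the mutant (mean -2.80 ± 0.0605 SD, n = 3; adjusted p = 5.64e-15) and lower on all 6 arrays. The deposited Cy3 signals show the size of it: wild-type RNA gave 15656, 13115 and 15326 intensity units, and mutant RNA gave 1519, 1290 and 1678. These are raw spot signals from different arrays, on which the background-subtracted Cy3 signal of all tested probes summed to between 29100400 and 35415400 with wild-type RNA and between 21402300 and 31230500 with mutant RNA. The highest mutant signal was far below the lowest wild-type signal. Here and below, Cy3 signals are part of the data that gave the ratios, so they show size and are no separate support. The share of all tested probes whose Cy3 signals do not overlap is not given. The gap between the tbh-1 signals is therefore not read as particular to tbh-1.

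tdc-1 encodes the tyrosine decarboxylase that makes tyramine, the step before tbh-1, and its 2 probes moved in opposite directions. The probe named for transcript K01C8.3a had log2 ratios of -1.65, -1.78 and -1.63 and was 3.22-fold lower in the mutant (-1.69 ± 0.0844 SD, adjusted p = 8.28e-13). Its Cy3 signals were 2201, 1409 and 2196 in wild type and 553, 352 and 621 in the mutant. The probe named for K01C8.3b had ratios of 0.79, 0.63 and 0.75 and was 1.65-fold higher (0.72 ± 0.0834, adjusted p = 4.28e-09). Its Cy3 signals were 302, 295 and 309 in wild type and 500, 377 and 533 in the mutant. The difference between the probes was -2.44, -2.41 and -2.38 in the 3 replicates, a mean of -2.41 ± 0.0325 (exact two-sided sign-flip permutation p = 0.25, the smallest that 3 replicates allow). It was the only 1 of 13 probe pairs from the same gene whose signs differed. The sequences of the probes were not used here, so which parts of the tdc-1 transcripts they measure is not stated.

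Germ line and oocyte markers were also lower in the mutant. All 13 tested oocyte probes were called lower, with a median of -1.82, and all 23 germ line probes had an adjusted p under 0.05 and were lower, with a median of -0.92. Over all tested probes, 7.17% were called lower and 41.3% were lower by adjusted p. The summed, background-subtracted Cy3 signal of the oocyte list was 270923 to 353034 in wild type and 41392 to 62079 in the mutant, and that of the germ line list was 95925 to 113142 and 33784 to 50603. Their part in the tbh-1 and tdc-1 results was not tested, and no marker list for the gonadal sheath was used.

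**Figure D2:**
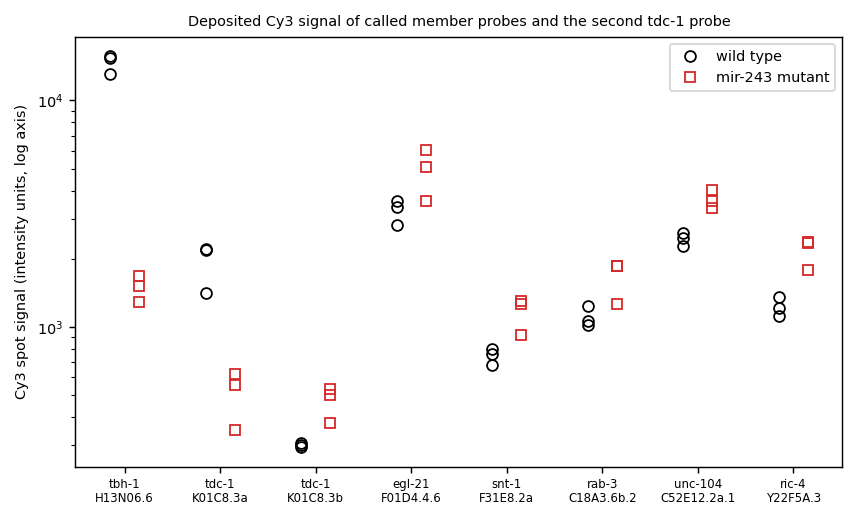
Deposited Cy3 spot signal (intensity units, log axis) of the 7 called member probes and of the second tdc-1 probe, with wild-type RNA (circles) and mutant RNA (squares) in the 3 replicates. tbh-1 falls from 13115 or more to 1678 or less, the 2 tdc-1 probes move in opposite directions, and the other probes are mostly higher with mutant RNA.

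The remaining transmitter enzymes and transporters were higher or showed small ratios. unc-25, the glutamate decarboxylase that makes GABA, was measured by 3 probes with ratios of 0.93 ± 0.0575, 0.90 ± 0.0491 and 0.77 ± 0.102, the largest adjusted p of them being 3.39e-09. These 3 probes thus gave 1.70- to 1.91-fold higher levels. unc-47, the vesicular GABA transporter that the same neurons use, was higher by only 0.14 ± 0.0198 (adjusted p = 0.00774) and on 4 of 6 arrays. eat-4, the vesicular glutamate transporter, was higher by 0.29 ± 0.124 (adjusted p = 0.000134). Of the enzymes of dopamine and serotonin synthesis, bas-1, the aromatic amino acid decarboxylase of both pathways, gave 0.21 ± 0.107. For cat-2, tyrosine hydroxylase, both probes were dim. Its B0432.5a probe gave 0.24 ± 0.129, but 0.72 with the scanner's processed signals. Its B0432.5b probe was measured above background in wild type on only 1 of 6 arrays, so its ratio of 0.23 (0.77 with processed signals) is poorly fixed. tph-1, tryptophan hydroxylase, passed with 1 probe (0.13 ± 0.0555, adjusted p = 0.0171, or 0.131 without replicate 1) and missed with the other (0.05 ± 0.0254, adjusted p = 0.293). Over this role, 13 probes had a median of 0.23, with 10 higher, 2 lower and 1 not passing, or 9, 2 and 1 without that cat-2 probe. Adjusted p-values of unc-47, tph-1 and bas-1 did not stay under 0.05 in every alternative, and the unc-47 ratio was 0.01 on the arrays with the mutant in Cy3 alone.

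The fusion machinery itself was higher throughout. All 7 tested probes of the SNARE proteins and their direct regulators had an adjusted p under 0.05 and were higher, with a median of 0.50. ric-4, which encodes a plasma membrane SNARE, had the highest ratio of the members, at 1.23, 1.28 and 1.22 (1.24 ± 0.0342; 2.37-fold; adjusted p = 8.05e-12). Its Cy3 signals were 1121, 1217 and 1361 in wild type and 2363, 1787 and 2346 in the mutant. On the arrays with the mutant in Cy3 alone its ratio was 0.87, below the 2-fold threshold. Its partners moved less: snb-1, synaptobrevin on the vesicle, was 1.49-fold higher (0.58 ± 0.0504), and unc-64, syntaxin, gave 0.84 ± 0.0162 and 0.50 ± 0.146 with its 2 probes. unc-18, which binds syntaxin, was higher by 0.35 ± 0.0676 and cpx-1, complexin, by 0.43 ± 0.144. tom-1, tomosyn, which inhibits SNARE assembly, had the smallest ratio of these (0.20 ± 0.0339, adjusted p = 0.000573). It was higher on 3 of 6 arrays only, those with the mutant in Cy3.

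Factors of docking, priming and calcium sensing followed the same direction, with 8 of 9 probes higher and a median of 0.65. snt-1 encodes synaptotagmin, the calcium sensor for fusion, and its F31E8.2a probe gave 1.07, 1.06 and 1.07 in the 3 replicates (1.07 ± 0.00527; 2.10-fold; adjusted p = 3.01e-11). Cy3 signals of that probe were 678, 762 and 796 in wild type and 1263, 923 and 1307 in the mutant. Its second probe gave 0.57 ± 0.0901. The F31E8.2a ratio was 0.78 on the arrays with the mutant in Cy3 alone. rab-3, the vesicle GTPase, was 2.12-fold higher with its C18A3.6b.2 probe (1.07, 1.17 and 1.02; 1.09 ± 0.0734; adjusted p = 5.36e-11), and 0.58 ± 0.136 with its C18A3.6a probe. Proteins that act around RAB-3 lay close together: its exchange factor aex-3 gave 0.64 ± 0.0462, its effector rbf-1, rabphilin, 0.65 ± 0.0508, and unc-10, the active zone protein that binds it, 0.75 ± 0.103. unc-13, which primes vesicles, was 1.73-fold higher (0.79 ± 0.107, adjusted p = 2.83e-09). unc-31, a priming factor known for dense-core vesicle release, was the exception at 0.05 ± 0.0414 (adjusted p = 0.303), and 4 of 6 arrays were above 0. Among the other vesicle proteins, sng-1, synaptogyrin, gave 0.90 ± 0.0986 and snn-1, synapsin, 0.82 ± 0.0796.

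Genes that build, supply and gate the terminal were higher as well. unc-104, the kinesin that carries vesicle precursors along axons, had ratios of 1.12, 1.11 and 1.17 and was 2.19-fold higher (1.13 ± 0.033, adjusted p = 1.98e-11). Its Cy3 signals were 2458, 2285 and 2586 in wild type and 3593, 3338 and 4023 in the mutant. All 4 presynaptic assembly probes measured above background in each genotype passed and were higher, with a median of 0.62. Of these, sad-1, a kinase of synapse formation, gave 0.70 ± 0.0642, rpm-1, a ubiquitin ligase that limits terminal growth, 0.54 ± 0.0298, and syd-2, liprin, 0.36 ± 0.0725. syd-1, which acts with syd-2 in building the active zone, gave 1.00 ± 0.0358 with its F35D2.5c.2 probe, just under a 2-fold change. The second syd-1 probe was not well above background in wild type on any array and was above it in the mutant on 6 of 6. It measured 1.28-fold higher on the scale of signal plus 50, a log2 ratio of 0.36 that is poorly fixed. The ratio was 0.21 with no background correction, 0.29 with the background fitted on all spots, and 1.48 with processed signals. unc-36, an accessory subunit of voltage-gated calcium channels, was higher by 0.83 ± 0.0887, while unc-2, the pore-forming subunit at release sites, was higher by 0.25 ± 0.0443 (adjusted p = 0.000125).

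Vesicle endocytosis was the role that ran the other way, with a median of -0.30 over 6 probes and 4 probes lower, 1 higher and 1 not passing. Of all tested probes, 41.3% were lower and 42.2% higher by adjusted p. The 6 probes, of 4 genes, are few to set against those shares. unc-26, synaptojanin, which strips the coat from new vesicles, had ratios of -0.44, -0.62 and -0.55 and was 1.45-fold lower (-0.54 ± 0.093, adjusted p = 1.26e-07). Its Cy3 signals were 1460, 1432 and 1668 in wild type and 877, 683 and 976 in the mutant. ehs-1, an adaptor of clathrin-coated pits, was lower with both probes, at -0.32 ± 0.0798 and -0.54 ± 0.0443. unc-11, a clathrin adaptor protein that sorts synaptobrevin, gave -0.27 ± 0.102 with 1 probe (adjusted p = 0.00014) and -0.09 ± 0.0549 with the other (adjusted p = 0.0635). All 6 arrays were below 0 for each of these 5 probes. unc-57, endophilin, which works with synaptojanin, was higher instead (0.51, 0.47 and 0.24; 0.41 ± 0.145; adjusted p = 8.14e-06). With median centring unc-57 did not pass, at a ratio of 0.10 (adjusted p = 0.149).

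Enzymes and membrane proteins of dense-core vesicles had a median of 0.95, and all 4 probes passed and were higher. egl-21, the carboxypeptidase that trims neuropeptides, was 2.09-fold higher (1.04, 1.09 and 1.06; 1.06 ± 0.0232; adjusted p = 3.43e-11). Its Cy3 signals were 3386, 2816 and 3595 in wild type and 5098, 3584 and 6071 in the mutant, and the lowest mutant value fell just below the highest wild-type value. egl-3, the proprotein convertase that acts before it, gave 0.98 ± 0.0722 with its C51E3.7b.1 probe and 0.36 ± 0.0484 with its C51E3.7a.1 probe. ida-1, a transmembrane protein of dense-core vesicles, gave 0.92 ± 0.0039, the smallest spread between replicates of any member.

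Several genes were read by more than 1 probe, and the probes did not always give the same size of change. Of 11 such genes with 13 probe pairs, 12 pairs had the same sign, and differences ran from 0.00371 in cat-2 to 0.64 in syd-1 among them. egl-3 (0.62), rab-3 (0.50), snt-1 (0.49) and unc-64 (0.35) also differed by more than the SD of either probe. So did ehs-1 (0.22), unc-11 (0.18) and tph-1 (0.08), and the Y37D8A.23c probe of unc-25 against its other 2 (0.16 and 0.13). Both probes of cat-2 and the 2 unc-25 probes named for Y37D8A.23b gave the same ratio within their spread. With 3 replicates the exact permutation test of a pair cannot go below p = 0.25. Signals near background are drawn towards a ratio of 0 by the offset of 50 units added before taking logs, and every fold here is on that scale.

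**Figure D3:**
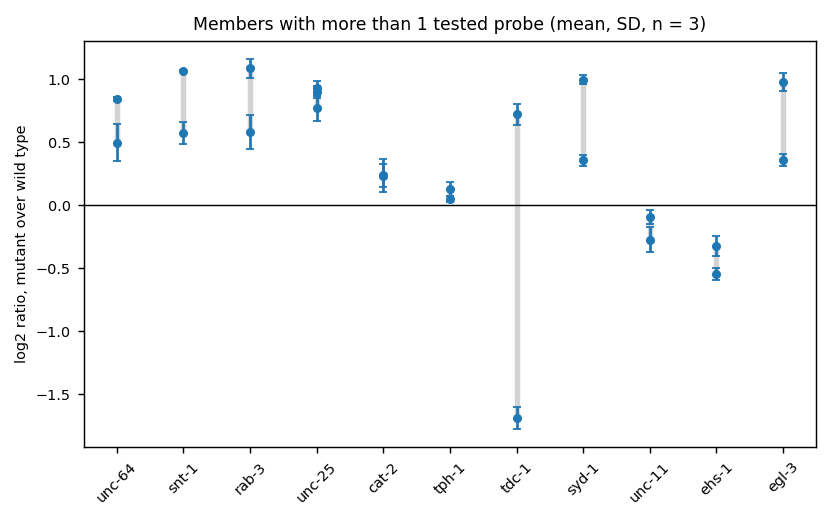
Log2 ratio of mutant over wild type for the 11 member genes with more than 1 tested probe, as the mean with SD over 3 replicates. Grey bars join the probes of a gene. Only the tdc-1 probes lie on both sides of 0, at -1.69 and 0.72.

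In a wider list of 90 other synaptic genes most probes were also higher, with a lower median. Its 100 tested probes, of 84 genes, had a median of 0.32 (SD 0.0157 over replicate medians), with 72 higher, 13 lower and 15 not passing. Over all tested probes, 42.2% were higher and 41.3% lower by adjusted p. Only 3 of the 100 probes also passed the 2-fold threshold. That is 2% called higher and 1% called lower, beside 9.1% and 7.17% of all tested probes. sbt-1, a chaperone of the convertase EGL-3, was 2.31-fold higher (1.21 ± 0.0866, adjusted p = 2.47e-11), and snt-4, a further synaptotagmin, was 2.21-fold higher (1.15 ± 0.1, adjusted p = 5.59e-11). fsn-1, the F-box partner of rpm-1, was 2.02-fold lower (-1.01 ± 0.0439, adjusted p = 6.78e-11), opposite to rpm-1 itself. Medians of its groups ran from 0.26 to 0.53, and their order changed with the processing. Endocytosis genes outside the members had a median of 0.28, with 9 probes higher and 3 lower of 14, unlike the endocytosis members, and the difference between these lists was not tested.

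**Figure D4:**
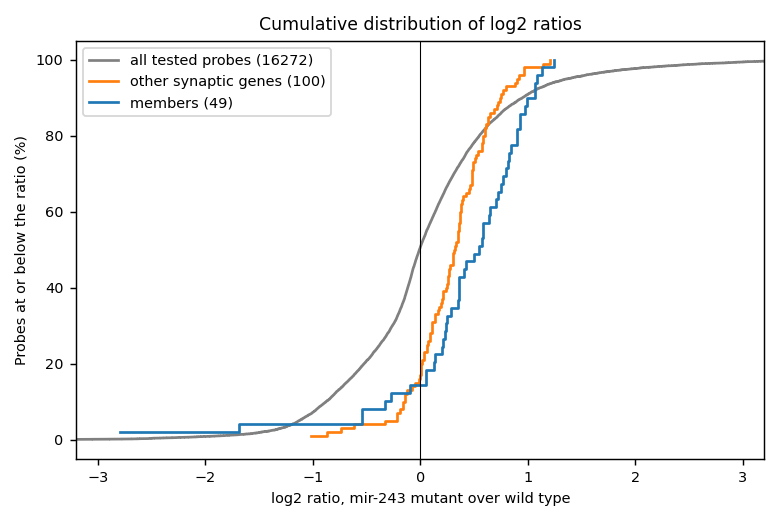
Percent of probes at or below each log2 ratio (mutant over wild type) for the 49 member probes, the 100 probes of other synaptic genes and all 16272 tested probes. The most extreme of all tested probes lie outside the axis. Member probes lie to the right of all tested probes through the middle of the range, with medians of 0.54, 0.32 and -0.01, but do not reach its far right end, since no member exceeds 1.24.

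Most neuron markers outside the synapse were also higher. Of 11 tested probes, 9 were higher, 1 was lower and 1 did not pass, with a median of 0.34 and a range of -0.30 to 0.87, and none was called. Their summed, background-subtracted Cy3 signal was 3134 to 4774 in the mutant and 3352 to 3950 in wild type, ranges that overlap. That of the members was 50404 to 73075 and 60188 to 70916, but a few bright probes weigh most in it. The transmitter role, which holds tbh-1, summed to 8722.5 to 11982 in the mutant and 20761 to 24493 in wild type. Endocytosis was also lower in the mutant, the SNARE sums overlapped, and the sums of all other roles were higher. Muscle markers had a median of 0.16, with 7 probes higher and 5 not passing, and sperm markers 0.13, with 6 higher, 1 lower and 2 not passing. All counts of this paragraph stand beside 42.2% higher and 41.3% lower by adjusted p over all tested probes. Calls stand beside 9.1% called higher and 7.17% called lower. Intestine markers went both ways, from -1.01 (ges-1, called lower) to 0.80, with 7 higher and 4 lower around a median of 0.11. Epidermis and molting markers were mostly higher in the mutant. Their median was 3.43, with 10 probes higher, 9 of them called, and 2 lower, over a range of -1.26 (col-19, an adult collagen, called lower) to 4.12, and they summed to 81264 to 125499 units in the mutant against 44692 to 53455 in wild type. Among these lists, 2 muscle probes were at background in both genotypes, and rgef-1, a neuron marker, was well above it on 2 of 6 arrays in the mutant and 1 of 6 in wild type and was not tested. The part of the cell type markers in the member ratios was not tested.

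**Figure D5:**
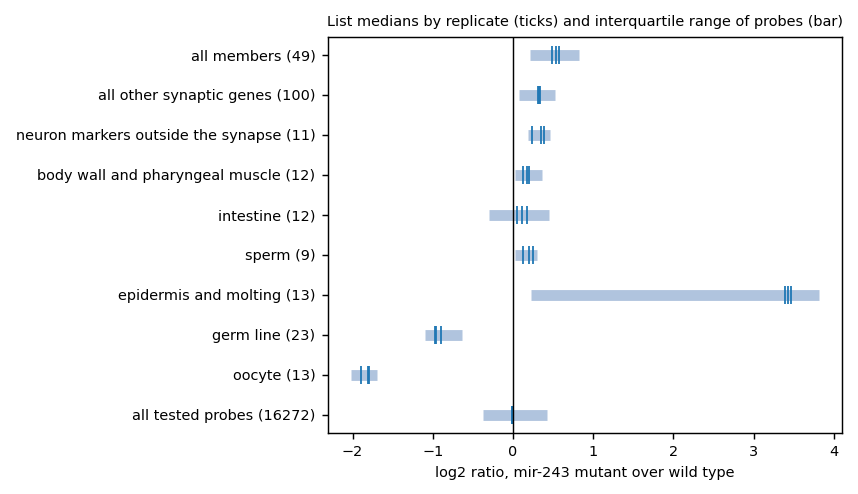
Median log2 ratio of mutant over wild type in each of the 3 replicates (ticks) and interquartile range over probes (bars) for the members, other synaptic genes, marker lists and all tested probes, with the number of tested probes in brackets. Members sit at 0.54, above the neuron markers at 0.34, while oocyte and germ line markers sit at -1.82 and -0.92.

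Across the array, replicates were close to each other and dye orientations less so. Pearson's r over all tested probes was 0.987 to 0.990 between replicates and 0.956 to 0.961 between the 2 orientations of a replicate, given across genes, which are not independent. Median spot signals were 237 to 318 in Cy3 and 370 to 647 in Cy5, over local backgrounds of 59 to 64 and 133 to 136.5. Arrays of replicates 1 and 2 lay on 1 slide and those of replicate 3 on another, so the replicate values are also values within slides. Of the 49 tested member probes, 46 exceeded background in each genotype on every array, 44 had the same sign on all 6, and none had a saturated spot.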

How the data were processed

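Ratios were read from 6 two-colour Agilent whole-genome arrays scanned by the authors. The file headers name Agilent Feature Extraction 10.5.1.1, and the submitters' processing notes name 8.5.1.1. The deposited values used were median spot and local background intensity in Cy3 and Cy5, not normalized, with the scanner's quality marks. The scanner's processed intensity in Cy3 and Cy5, which is background-corrected and dye-normalized, and the log2 ratio of Cy5 over Cy3 that the authors deposited were used only as alternatives. A log10 ratio deposited by the scanner software was not tested. The genome build is not given in the sources used here, so no positions or sequences are printed.

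Normexp background correction used an offset of 50 and was fitted on spots without outlier marks, and ratios were normalized within arrays by loess in limma 3.58.1 (R 4.3.3, with data.table in version 1.17.8), where control and outlier-marked spots had weight 0. Median signals stood in for mean signals. Marked spots were set to missing, spots of a probe were averaged, dye swaps were turned so that all ratios are mutant over wild type, and each swapped pair was averaged. A probe was tested when at least 50% of its spots were well above background on at least 4 of 6 arrays in at least 1 genotype (16812 of 20401 probes) and it had a value in all 3 replicates (16272). The two-sided limma test (lmFit, eBayes) set ratios against 0, p-values were adjusted by Benjamini-Hochberg over these probes, and a probe was called at an adjusted p under 0.05 and at least 2-fold. The test was first checked on simulated data with planted changes larger than 2-fold only. Smaller ratios, such as most of those of the members, and calls by adjusted p alone were not covered by that check. The labels number the replicates, the paper's methods name them as biological, and the replicate number pairs mutant and wild-type RNA on the same arrays. Intensities carry no read depth, and the number of arrays limits the precision.

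Gene names came from sequence names through a RefSeq gene table (assembly WBcel235), where 38 of the 40 members matched. The members and all lists were chosen with earlier results of these data known, so counts and medians of lists are descriptions. Every member is described, and outside the members only called genes at the ends of a list's range are named, except rgef-1, an untested neuron marker named after its values were seen. Alternatives covered background correction, normalization, outlier marks, the filter on dim probes, dye orientation, replicate and slide as blocks, and leaving out each replicate.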

Additional observations from a re-analysis of the deposited data

Results flagged for a closer look

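Of 58 measures examined, 3 stood apart, and chance gives about 1 in 20 for each group of 6 arrays. The tom-1 probe M01A10.2c had a mean log2 ratio of -0.0322 on the arrays with the mutant in Cy5 but lay between 0.39 and 0.49 on those with the mutant in Cy3. All arrays of one orientation were on one side of 0 and all of the other on the other side, and the difference was not tested. One of the unc-25 probes named for Y37D8A.23b read 0.75 on 1 array (replicate 2, mutant in Cy5), while the other 5 arrays gave 0.89 to 0.95. The unc-11 probe C32E8.10c read -0.29 on 1 array (replicate 1, mutant in Cy5), against -0.09 to -0.02 elsewhere.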

How the results depend on the processing

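tbh-1 and the K01C8.3a probe of tdc-1 stayed called lower in all 16 alternatives, and 46 of 49 member probes kept their sign in each one that could be run. The member median of 0.54 was 0.46 with no background correction, 0.46 with no filter on dim probes, and 0.68 with processed signals of the scanner and 0.68 from the deposited log2 ratios. Averaging probes by gene, chosen after seeing the data, gave 0.58, and leaving out probes near background in 1 genotype, also chosen then, gave 38 higher and 6 lower by adjusted p. Member probes called higher were 2 with median centring, and by adjusted p alone 40 were higher and 6 lower, beside 6874 and 6725 of all probes. Probes called lower over the array were 2214 with processed signals and 2321 with deposited ratios, against 1167. Signs turned for unc-31 (-0.0135 with deposited ratios, -0.0636 with the mutant in Cy3 alone), tom-1 (-0.0322 with the mutant in Cy5 alone), the tph-1 probe ZK1290.2b (-0.00814 with the mutant in Cy3 alone) and the median of all probes (0.00993 with median centring, 0.0031 with the mutant in Cy5 alone). With processed signals rab-3 (1.00) and egl-21 (0.98) fell short of a 2-fold change. The causes were not tested. With the replicate block, which pairs both arrays of a replicate (consensus correlation -0.31), 5 member probes were higher and 2 lower, the median was 0.54, and no call changed. Slide as a random block gave 5 and 2. Leaving out 1 replicate gave 5 to 7 higher, 2 lower and medians of 0.53 to 0.55. Signal over background limits what can be said of cat-1, cat-2 and the dim syd-1 probe, whose ratio was 1.48 with processed signals.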
